A study of Homo sapiens with 8 samples.

Results

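The 28 genes described here encode the enzymes that build cholesterol, the proteins that sense it and a few that move it within the cell. They were taken as a fixed list of gene symbols and looked up in the identifier column of the deposited count table. All 28 were present among its 16829 genes, and all 28 had enough reads to be among the 14157 genes tested. Levels are given as FPKM, fragments scaled by a gene length and library size, as the authors deposited them. Rankings of genes by level rest on those gene lengths. Changes are log2 fold changes fitted to the deposited counts.

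The study measured mRNA in human colorectal cancer cell lines whose level of CYP1B1, a cytochrome P450 that oxidises steroid hormones and polycyclic aromatic hydrocarbons, had been altered in opposite directions. RKO is a microsatellite-unstable line and was compared as RKO control (genotype CYP1B1 normal control) against RKO with CYP1B1 overexpression. SW480 carries truncated APC and was compared as shNT (genotype CYP1B1 normal control) against shCYP1B1 (CYP1B1 knockdown). Each of the 4 groups held 2 libraries. All cells grew in DMEM with 10% fetal bovine serum, a medium that supplies lipoprotein cholesterol, and the labels name a CYP1B1 lentivirus as the treatment. What the RKO controls received, and which promoter drove the transgene, are not stated in the labels. The knockdown rests on 1 hairpin, so effects on other targets and effects of CYP1B1 cannot be told apart. Nothing in the labels says that the replicates came from separate cultures, so the p-values reflect the spread between the libraries alone, which may be technical.

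Cholesterol is assembled from acetyl-CoA through mevalonate and the isoprenoid pyrophosphates to squalene, which is then epoxidised, closed into lanosterol and trimmed step by step to cholesterol. Most genes of the pathway are switched on by SREBP2, the product of SREBF2, while SREBP1, from SREBF1, acts more on fatty acid synthesis. Both are made as inactive precursors in the membrane of the endoplasmic reticulum and are carried to the Golgi for cleavage by the escort protein SCAP. When sterols are plentiful, INSIG1 and INSIG2 hold SCAP in the endoplasmic reticulum, and the pathway quietens. INSIG1 is itself an SREBP target, whereas INSIG2 is far less so. Colon cancer cells can both make cholesterol and take it up from lipoproteins, and NPC1 and NPC2 pass the imported cholesterol out of the lysosome.

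The libraries held 31550173 to 34921085 counts each. CYP1B1 went the way its labels say: 0.134 and 0.139 FPKM in RKO control against 85.0 and 101 with overexpression (log2 fold change 9.42, SE 0.18, adjusted p = 7.93e-11), and 0.274 and 0.421 in shNT against 0.0679 and 0.0556 with shCYP1B1 (-2.44, SE 0.31, adjusted p = 6.43e-05). CYP1B1 was low in SW480, at 50 and 76 counts in shNT and 12 and 10 with the hairpin. The 2 overexpression libraries differed more from each other than the pair of any other group, with a median gap over all genes of 0.19 on the log2 scale against 0.09 to 0.10, and among the 28 genes of 0.18 against 0.06 to 0.10.

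Markers of colon epithelium and of other cell types were read in the same libraries. Of 10 colon epithelial markers, 7 were tested. In RKO, KRT20, CDX1 and LGALS4 were at 0 in both control libraries, EPCAM lay from 1.13 to 1.31 FPKM and CDH1 reached at most 0.0503. The summed level was 154 to 159 FPKM in control and 167 to 177 with overexpression, where KRT8 rose by 0.72 (SE 0.07). In SW480 CDX1 was at 0 in shNT, and the sum was 3019 to 3133 in shNT and 3260 to 3283 with shCYP1B1. EPCAM fell there by 2.52, KRT19 by 0.92, CDX2 by 0.86 and VIL1 by 3.19 on the log2 scale, while KRT8 and KRT18 rose by 0.26 and 0.27. KRT19 did not pass with DESeq2 (-0.90, adjusted p = 0.0984) or limma on log2(FPKM + 0.1) (-0.96, adjusted p = 0.0593), and KRT8 and KRT18 did not without shNT replicate 2 (adjusted p = 0.0620 and 0.0557). Of 10 markers of blood, endothelial and stromal cells, 7 were tested. CD68, a lysosomal protein used as a macrophage marker, stood at 393 to 461 FPKM in RKO and at 3.12 to 13.8 in SW480. The others summed to at most 6.28 FPKM in every library, and CD3E and CD14 were at 0 in both RKO control libraries. In SW480, CD68 rose by 1.94, COL1A1 by 1.00 and CD3E by 2.59. COL1A1 and CD3E did not pass without shNT replicate 1 (0.77, adjusted p = 0.0924, and 2.59, adjusted p = 0.155) or shCYP1B1 replicate 2 (0.93, adjusted p = 0.0587, and 2.96, adjusted p = 0.0764), nor CD3E without shNT replicate 2 or shCYP1B1 replicate 1 (adjusted p = 0.153 and 0.218). In RKO, COL3A1 rose by 1.69 (adjusted p = 0.0479) and passed only without overexpression replicate 2 among the libraries left out, with adjusted p from 0.0571 to 0.252 without each of the others. The part of these shifts in the results on sterol genes was not tested.

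With shCYP1B1 in SW480, 18 of the 28 genes rose, 4 fell and 6 did not pass the test, against 25.3% of all tested genes that rose and 25.3% that fell. The median log2 fold change of the 28 genes was 0.51, against -0.0037 over all genes tested, and 5 of them rose by more than 2-fold, a rise of that size being called in 7.13% of all genes. In bulk RNA, more transcripts per cell and more cells of a kind that expresses a gene cannot be told apart. INSIG1, the sterol-dependent brake on SREBP processing, stood at 6.17 and 6.57 FPKM in shNT and at 35.2 and 34.3 with shCYP1B1, a 5.62-fold rise. MSMO1, which removes the C4 methyl groups of the sterol ring, stood at 8.03 and 8.26 and then at 36.2 and 33.5, a 4.41-fold rise. In both genes the groups lay far apart and the replicates close together. Leaving out any one of shNT replicate 1, shNT replicate 2 or shCYP1B1 replicate 1 took the number that fell from 4 to 2, while the number that rose ranged from 15 to 19 over all libraries left out.

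**Figure D1:**
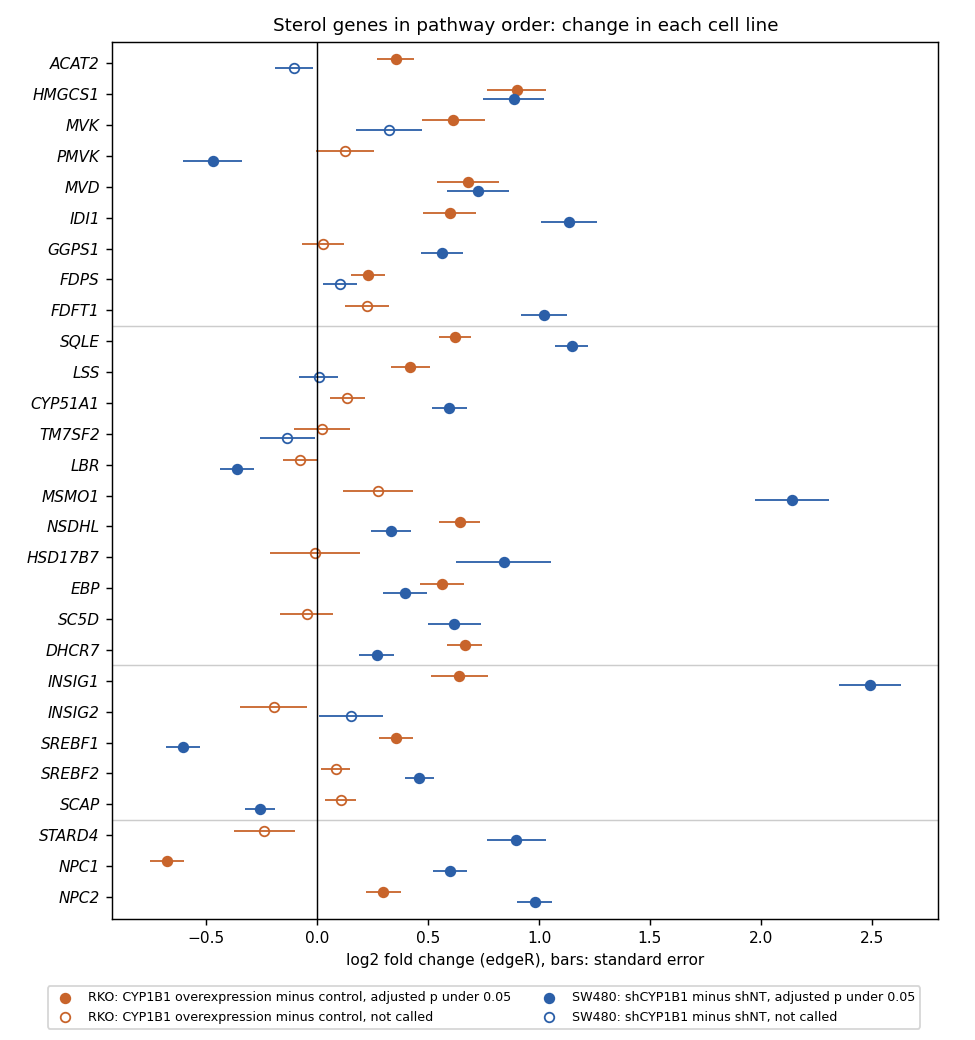
Log2 fold changes (x axis) of the 28 genes in pathway order (y axis), overexpression minus control in RKO and shCYP1B1 minus shNT in SW480, with bars of 1 standard error; filled points have an adjusted p under 0.05. INSIG1 and MSMO1 lie furthest to the right in SW480 at 2.49 and 2.14, and SREBF1 and NPC1 have points on opposite sides of 0 in the 2 lines.

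SREBPs bind a sterol regulatory element in the promoters of their targets, usually beside sites for NF-Y (the CCAAT box) and Sp1 (the GC box). Promoter sequences, 250 bases before to 50 after each annotated start, came from RefSeq on GRCh38.p14 and matched 25 of the 28 genes, with 34 starts; ACAT2, FDFT1 and SQLE had no entry. Stretches of 4 promoters are shown 5′ to 3′ on the gene's strand, with capitals marking every match, on either strand, to the element (TCACNCCAC), its core (TCACNCC), the CCAAT box (its name gives the letters) or the GC box (GGGCGG). INSIG1 and MSMO1 are shown because they rose most in SW480, NSDHL as 1 of 4 genes that rose in both lines and held a core match, picked after the matches were seen, and SREBF2 because it held the full element. All 4 stretches lie upstream of the start and outside protein-coding exons of the GENCODE annotation.
INSIG1 (chr7:155297637-155297770, plus strand): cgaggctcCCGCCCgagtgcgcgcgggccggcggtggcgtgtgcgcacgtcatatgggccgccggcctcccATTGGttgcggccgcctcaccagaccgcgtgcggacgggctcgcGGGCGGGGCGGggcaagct
MSMO1 (chr4:165327419-165327622, plus strand): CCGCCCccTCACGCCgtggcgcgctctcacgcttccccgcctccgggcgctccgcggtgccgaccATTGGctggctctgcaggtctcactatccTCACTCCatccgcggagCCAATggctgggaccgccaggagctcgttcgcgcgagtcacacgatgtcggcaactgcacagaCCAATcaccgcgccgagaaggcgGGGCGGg
NSDHL (chrX:152830827-152830965, plus strand): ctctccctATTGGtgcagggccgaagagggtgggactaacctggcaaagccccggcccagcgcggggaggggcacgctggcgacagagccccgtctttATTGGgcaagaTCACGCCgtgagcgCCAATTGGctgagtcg
SREBF2 (chr22:41832964-41833011, plus strand): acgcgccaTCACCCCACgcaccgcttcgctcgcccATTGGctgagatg

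The MSMO1 stretch held 2 matches to the core and 3 CCAAT boxes, NSDHL 1 core and 4 CCAAT boxes, and SREBF2 the full element, which by its letters also counts as a core match. INSIG1 held a CCAAT box and 3 GC boxes and no core match in this window. Of the 34 starts, 1 (2.94%) held the full element, against 1.13% of the 35116 starts in the RefSeq table. The core was found at 10 of 34 starts (29.4% against 15.5%), in 8 genes: HMGCS1, IDI1, INSIG2, MSMO1, MVK, NPC2, NSDHL and SREBF2. CCAAT stood at 20 of 34 starts (58.8% against 34.6%) and GGGCGG at 30 of 34 (88.24% against 44.95%). Among the 16806 starts of genes tested here, the shares were 1.08% for the element, 16.15% for the core, 34.34% for CCAAT and 64.56% for GGGCGG. Starts of one gene can lie close together, and those of HMGCS1 and of NPC2 counted the same core match from different starts. These are counts of letters, with no measurement of binding.

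The enzymes from acetyl-CoA to squalene came first in the pathway. Of these 9 genes 5 rose and 1 fell with shCYP1B1 (median 0.56), beside 25.3% of all genes in each direction. IDI1, the isopentenyl-diphosphate isomerase, was the lowest of the 28 genes in shNT at 2.53 and 2.40 FPKM and reached 5.45 and 5.07 (1.13, SE 0.13, adjusted p = 2.40e-05). FDFT1, squalene synthase, which commits the pathway to sterols, went from 17.3 and 17.2 to 33.0 and 35.0 (1.02, SE 0.10, adjusted p = 1.17e-05). In both genes the 2 shCYP1B1 libraries lay above the 2 shNT libraries with no overlap. The same held for MVK, FDPS and INSIG2, which were not called, and the share over all genes is not given here. HMGCS1, which makes HMG-CoA, went from 3.22 and 3.73 to 6.37 and 6.07 (0.89, SE 0.14), and MVD, which decarboxylates mevalonate pyrophosphate, from 11.6 and 11.4 to 20.4 and 16.5 (0.73, SE 0.14). GGPS1 makes geranylgeranyl pyrophosphate for protein prenylation, a branch off the sterol route, and rose from 6.65 and 6.71 to 9.51 and 9.63 (0.56, SE 0.09).

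PMVK, phosphomevalonate kinase, fell in SW480, from 12.9 and 12.0 to 8.23 and 9.17 FPKM (-0.47, SE 0.13, adjusted p = 0.0119). That call rested on single libraries: the adjusted p was 0.0822 without shNT replicate 1 and 0.0930 without shCYP1B1 replicate 1, at log2 fold changes of -0.41 and -0.39. The remaining 3 genes of this group did not pass. MVK, mevalonate kinase, gave 0.32 (95% interval -0.0034 to 0.65, adjusted p = 0.0918). It passed with each line fitted alone (adjusted p = 0.0415), without either overexpression library (0.0402 and 0.0385) and without shCYP1B1 replicate 1 (0.48, adjusted p = 0.0432). FDPS, farnesyl diphosphate synthase, was the most abundant of the enzymes in shNT at 70.5 and 68.7 FPKM and gave 0.10 (interval -0.07 to 0.27). ACAT2, the cytosolic acetoacetyl-CoA thiolase, gave -0.11 (interval -0.29 to 0.08). ACAT2 shares 26.5% of its annotated exon bases with SOD2 on the opposite strand and GGPS1 shares 37.3% with TBCE on the same strand, and how reads there were assigned is not given in the sources used here.

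**Figure D2:**
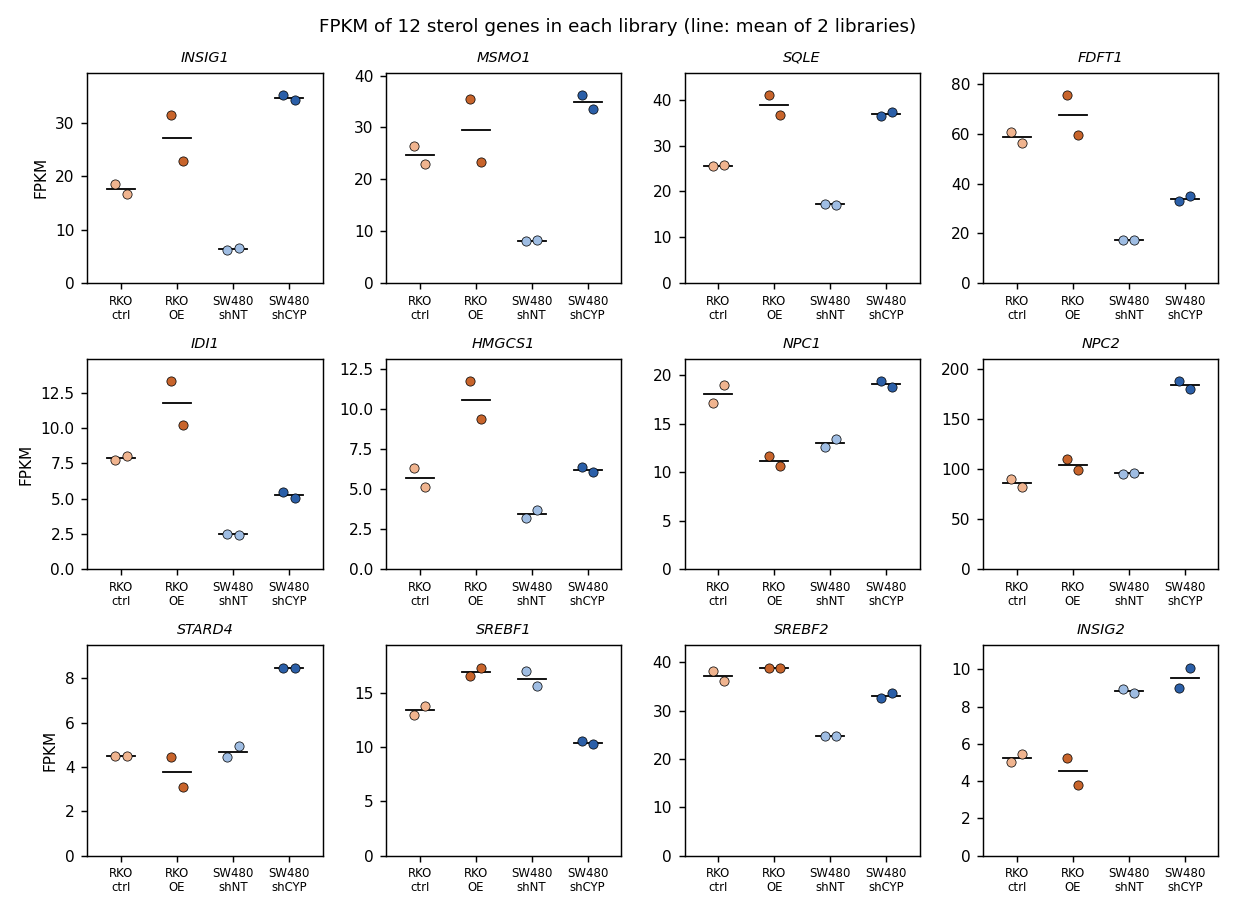
FPKM per library (y axis, a linear scale starting at 0) of 12 of the genes in the 4 groups (ctrl, control; OE, CYP1B1 overexpression; shCYP, shCYP1B1), with 1 point per library and a line at the group mean. INSIG1 reaches 35.2 and 34.3 in the shCYP1B1 libraries from 6.17 and 6.57 in shNT, and MSMO1 and FDFT1 show overexpression libraries that lie apart.

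Of the 11 enzymes from squalene to cholesterol, 8 rose and 1 fell with shCYP1B1 (median 0.39), beside 25.3% of all genes in each direction. SQLE, squalene epoxidase, the first oxygen-requiring step and a rate-limiting one, had 17.2 FPKM in both shNT libraries and 36.4 and 37.3 with shCYP1B1 (1.15, SE 0.07, adjusted p = 6.91e-07). CYP51A1, the lanosterol demethylase, went from 31.3 and 31.8 to 45.6 and 47.0 (0.60, SE 0.08). MSMO1 rose by 2.14 (SE 0.17, adjusted p = 2.18e-06). The other enzymes that act with it on the C4 carbon are NSDHL, the C4 decarboxylase, at 32.3 and 29.8 and then 38.1 and 37.8 FPKM (0.33, SE 0.09), and HSD17B7, the 3-ketosteroid reductase, at 3.40 and 3.87 and then 6.58 and 6.05 (0.84, SE 0.21).

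SC5D, the lathosterol desaturase near the end of the route, rose from 7.56 and 8.52 to 11.7 and 12.3 FPKM (0.62, SE 0.12). EBP, the sterol isomerase, went from 70.1 and 64.0 to 84.7 and 86.2 (0.39, SE 0.10), and DHCR7, which makes cholesterol from 7-dehydrocholesterol, from 57.0 and 55.2 to 67.0 and 63.9 (0.27, SE 0.08, adjusted p = 0.0136). Of the 8 rises among these enzymes, 4 were lost when a single library was left out. DHCR7 did not pass when any of the 4 SW480 libraries was left out (0.24 to 0.31, adjusted p from 0.0532 to 0.117). NSDHL and EBP did not pass without shNT replicate 2 (0.28, adjusted p = 0.0870, and 0.33, adjusted p = 0.0693), nor HSD17B7 without shNT replicate 1 (0.76, adjusted p = 0.0543).

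LBR and TM7SF2 both reduce the C14 double bond of the sterol ring, and LBR is also a protein of the inner nuclear membrane. LBR fell from 23.7 and 26.6 to 18.6 and 19.4 FPKM (-0.36, SE 0.08, adjusted p = 0.00230), and did not pass without shNT replicate 2 (-0.28, adjusted p = 0.0565). TM7SF2 gave -0.14 (interval -0.41 to 0.14). LSS, lanosterol synthase, which lies between SQLE and CYP51A1, stood at 13.5 and 13.2 and then 12.3 and 13.7 FPKM and gave 0.01 (interval -0.19 to 0.20), so that its neighbours on either side rose while its groups overlapped. HSD17B7 has a pseudogene, HSD17B7P2, that matched it at 98.4% over 1033 bp, and 79.4% of the annotated exon bases of CYP51A1 also belong to another gene model on the same strand. The levels of both are uncertain for that reason.

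Among the 5 regulators, 2 rose, 2 fell and 1 did not pass in SW480, beside 25.3% of all genes in each direction. No result on the regulators as a set is drawn from these counts. INSIG1 rose by 2.49 (SE 0.14, adjusted p = 3.09e-07), whereas INSIG2 stood at 8.96 and 8.76 FPKM and then at 9.005 and 10.1 (0.15, interval -0.16 to 0.47). The ratio of INSIG1 to INSIG2 in FPKM was 0.720 ± 0.0434 (SD, n = 2) in shNT and 3.66 ± 0.364 with shCYP1B1, so INSIG1 went from the lower to the higher of the pair. SREBF2 rose from 24.7 and 24.8 to 32.5 and 33.6 (0.46, SE 0.07, adjusted p = 1.50e-04), and SREBF1 fell from 17.0 and 15.7 to 10.5 and 10.3 (-0.61, SE 0.08, adjusted p = 6.84e-05). The ratio of SREBF2 to SREBF1 was accordingly 1.52 ± 0.0924 and then 3.18 ± 0.132 (SD, n = 2). SCAP fell from 35.9 and 35.0 to 28.7 and 28.8 (-0.26, SE 0.07, adjusted p = 0.00795). Without any 1 of the 4 SW480 libraries it missed the threshold, with log2 fold changes from -0.28 to -0.23 and adjusted p from 0.0510 to 0.0972. The mRNA levels do not measure cleaved SREBP.

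All 3 transport genes rose with shCYP1B1, beside 25.3% of all genes. NPC2, the soluble lysosomal cholesterol carrier, was the most abundant of the 28 genes at 95.8 and 96.6 FPKM in shNT, and reached 188 and 180.0 (0.98, SE 0.08, adjusted p = 2.77e-06). NPC1, the membrane protein that takes over cholesterol from it, went from 12.6 and 13.4 to 19.3 and 18.8 (0.60, SE 0.08, adjusted p = 6.97e-05). STARD4, a soluble carrier that shuttles cholesterol between membranes, went from 4.44 and 4.94 to 8.47 and 8.49 (0.90, SE 0.13, adjusted p = 2.16e-04). In each of the 3 the shCYP1B1 libraries lay above both shNT libraries with no overlap, as they also did for the uncalled MVK, FDPS and INSIG2.

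With CYP1B1 overexpression in RKO, 14 of the 28 genes rose, 1 fell and 13 did not pass, against 13.8% of all tested genes that rose and 13.8% that fell. The median was 0.25, against 0 over all genes tested, and none of the 28 moved by 2-fold. Changes of that size were rare in RKO, where 94 of all 14157 genes tested rose and 219 fell by more than 2-fold. The rises of the 28 genes were uneven over the pair of overexpression libraries. Set against the mean of the controls, the median of the 28 genes was 0.35 in replicate 1, with 25 of 28 above 0, and 0.15 in replicate 2, with 20 of 28 above 0. The number that rose depended on the libraries used and fell to 7 without RKO control replicate 2, with 17 as the highest value over the libraries left out. Without overexpression replicate 1, 3 genes fell in place of 1, and the median ranged from 0.15 to 0.35.

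**Figure D3:**
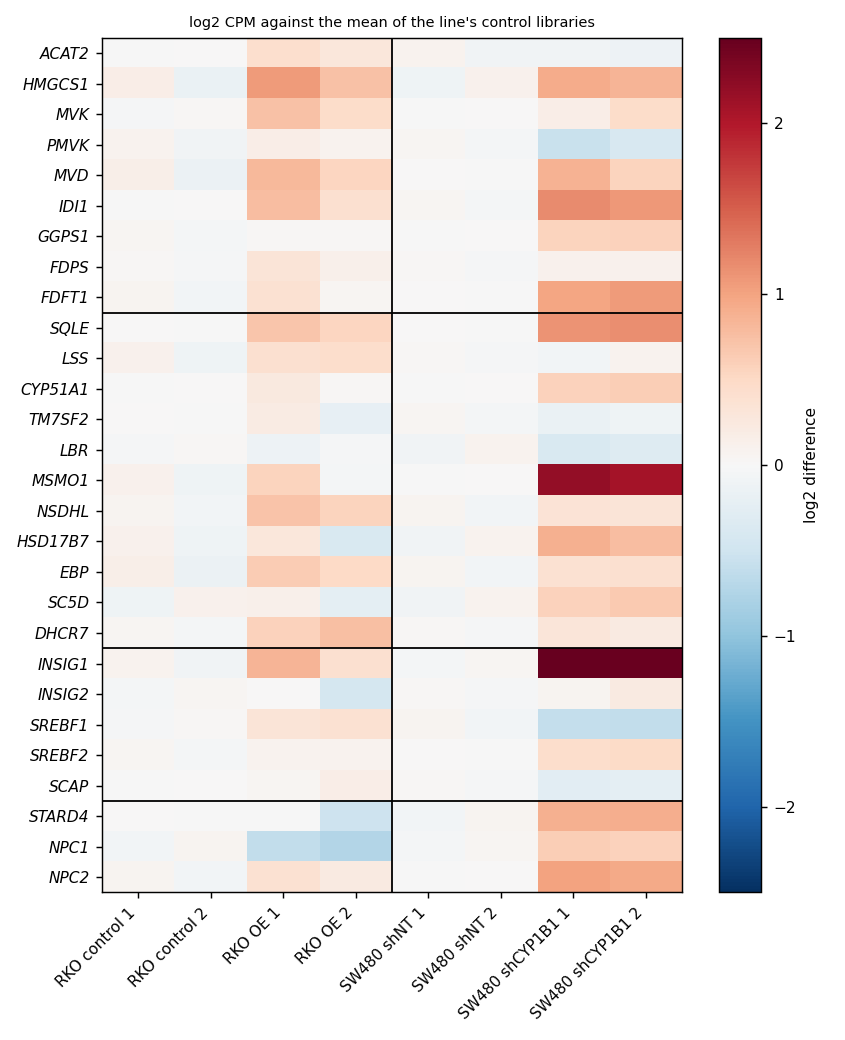
Log2 CPM of each of the 28 genes (y axis, grouped by role) in each of the 8 libraries (x axis; OE, CYP1B1 overexpression) minus the mean of the control libraries of the same line, on a colour scale centred at 0. The shCYP1B1 columns resemble each other, while the overexpression columns differ, with a median of 0.35 in replicate 1 and 0.15 in replicate 2.

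Of the 9 enzymes up to squalene, 6 rose in RKO and none fell (median 0.35), beside 13.8% of all genes each way. HMGCS1 rose most of the 28 genes, from 6.29 and 5.13 FPKM in control to 11.7 and 9.33 (0.90, SE 0.13, adjusted p = 7.53e-04), followed by MVD, from 14.2 and 11.8 to 22.4 and 18.6 (0.68, SE 0.14). MVK went from 7.24 and 7.58 to 12.3 and 10.1 (0.61, SE 0.14) and IDI1 from 7.74 and 8.01 to 13.3 and 10.2 (0.60, SE 0.12). In all 4 the higher value belonged to overexpression replicate 1, and no control library overlapped with the overexpression pair. The groups of LBR, SREBF2, SCAP and STARD4 did not overlap in RKO either, although these genes were not called. The share of all genes without overlap is not given here. ACAT2 rose from 32.8 and 33.7 to 43.8 and 40.1 (0.35, SE 0.09), and FDPS from 66.4 and 64.5 to 80.6 and 71.0 (0.23, SE 0.08, adjusted p = 0.0446).

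Several of these calls did not hold without 1 library. With libraries left out in turn, FDPS passed only without overexpression replicate 2, and without each of the other 7 its log2 fold change lay from 0.14 to 0.26 and its adjusted p from 0.0638 to 0.244. ACAT2 gave 0.35 and 0.36 without control replicates 1 and 2 (adjusted p = 0.0688 and 0.0683), and MVK 0.59 and 0.63 (adjusted p = 0.0618 and 0.0578). MVD gave 0.54 without control replicate 2 (adjusted p = 0.0647). IDI1 passed throughout but was 0.40 without overexpression replicate 1. PMVK, GGPS1 and FDFT1 did not pass in RKO. FDFT1 stood at 60.9 and 56.4 in control and 75.6 and 59.7 with overexpression (0.22, interval 0.00 to 0.44), and its value was 0.046 without overexpression replicate 1 (adjusted p = 0.620) and 0.38 without replicate 2, where it passed (adjusted p = 9.95e-06).

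Of the 11 sterol enzymes, 5 rose in RKO and none fell (median 0.27), beside 13.8% of all genes each way. DHCR7 went from 25.9 and 24.7 FPKM to 37.2 and 42.0 (0.66, SE 0.08, adjusted p = 2.45e-04), and is the 1 of these 5 apart from LSS whose higher value was in overexpression replicate 2. NSDHL went from 21.3 and 19.7 to 33.4 and 29.8 (0.64, SE 0.09) and SQLE from 25.5 and 25.7 to 41.0 and 36.7 (0.62, SE 0.07). EBP rose from 58.2 and 48.3 to 81.4 and 74.1 (0.56, SE 0.10), and LSS from 16.2 and 14.3 to 19.9 and 20.4 (0.42, SE 0.09). LSS did not pass without control replicate 2 (0.32, adjusted p = 0.0694).

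The other 6 sterol enzymes did not pass in RKO. MSMO1, so much higher with shCYP1B1 in SW480, stood at 26.4 and 22.9 in RKO control and at 35.6 and 23.4 with overexpression (0.27, interval -0.07 to 0.62), and the groups overlapped. Its value was -0.06 without overexpression replicate 1, and 0.54 with a pass without replicate 2 (adjusted p = 2.27e-05). CYP51A1 gave 0.13 (interval -0.04 to 0.31) and was 0.025 without overexpression replicate 1 (adjusted p = 0.818) and 0.24 without replicate 2, where it passed (adjusted p = 0.00295). HSD17B7 was at 10.7 in overexpression replicate 1 and 6.77 in replicate 2, the widest gap of the 28 genes within that pair (0.66 on the log2 scale), with controls at 9.52 and 8.28. The groups of TM7SF2 and SC5D also overlapped, and LBR gave -0.08 (interval -0.24 to 0.09).

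Of the 5 regulators in RKO, 2 rose and none fell, beside 13.8% of all genes each way. INSIG1 rose from 18.6 and 16.8 FPKM to 31.6 and 22.9 (0.64, SE 0.13, adjusted p = 0.00401). It was 0.56 without control replicate 2, where it did not pass (adjusted p = 0.0620), and 0.39 without overexpression replicate 1. SREBF1 rose from 12.99 and 13.8 to 16.5 and 17.3 (0.35, SE 0.08, adjusted p = 0.00603), and did not pass without control replicate 1 (0.32, adjusted p = 0.0599). SREBF2, at 38.2 and 36.2 in control and 38.9 in both overexpression libraries, gave 0.08 (interval -0.06 to 0.23). INSIG2 (-0.20, interval -0.53 to 0.14) and SCAP (0.10, interval -0.04 to 0.25) did not pass, but both did without overexpression replicate 1 (-0.45, adjusted p = 0.0130, and 0.16, adjusted p = 0.0414). Without overexpression replicate 2 they gave 0.017 (adjusted p = 0.990) and 0.052 (adjusted p = 0.591). The ratio of INSIG1 to INSIG2 in RKO was 3.39 ± 0.461 in control and 6.02 ± 0.0107 with overexpression (SD, n = 2).

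The transport genes parted in RKO. NPC1 fell from 17.1 and 19.0 FPKM to 11.6 and 10.6 (-0.68, SE 0.08, adjusted p = 1.96e-04), the only 1 of the 28 genes to fall there. NPC2 rose from 89.9 and 82.5 to 111 and 98.9 (0.30, SE 0.08, adjusted p = 0.0165), a call lost without control replicate 2 (0.23, adjusted p = 0.166) and with RKO fitted alone (0.31, adjusted p = 0.0702). The NPC2 to NPC1 ratio in FPKM was 4.81 ± 0.640 in control and 9.40 ± 0.157 with overexpression (SD, n = 2). STARD4 stood at 4.49 and 4.50 in control and at 4.44 and 3.08 with overexpression (-0.24, interval -0.54 to 0.06), and was -0.0017 without overexpression replicate 2 and -0.52 without replicate 1, where it passed (adjusted p = 4.82e-05).

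Read side by side, 9 genes rose in both lines, although CYP1B1 was raised in one and lowered in the other: HMGCS1, MVD, IDI1, SQLE, NSDHL, EBP, DHCR7, INSIG1 and NPC2. Over all tested genes, 4.49% rose in both, and the shares for the other combinations are not given here. When single libraries were left out, MVD, INSIG1 and NPC2 lost the call in RKO. NSDHL, EBP and DHCR7 lost it in SW480. A further 4 rose in RKO and did not pass in SW480 (ACAT2, MVK, FDPS and LSS), and 8 rose in SW480 and did not pass in RKO (GGPS1, FDFT1, CYP51A1, MSMO1, HSD17B7, SC5D, SREBF2 and STARD4). PMVK, LBR and SCAP fell in SW480 and did not pass in RKO. SREBF1 rose in RKO and fell in SW480, NPC1 fell in RKO and rose in SW480, and TM7SF2 and INSIG2 passed in neither line. The lines have separate control libraries.

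The difference between the lines was tested directly, as the shCYP1B1 effect in SW480 minus the overexpression effect in RKO. It was higher in SW480 for 13 of the 28 genes and lower for 6, against 18.3% and 19.2% of all tested genes. Over the libraries left out, the number higher ranged from 10 to 14. The number lower was 3 without RKO control replicate 2, 10 without overexpression replicate 2, 1 without shNT replicate 1 and 2 without shCYP1B1 replicate 1. The widest differences upward were those of MSMO1 (1.87, SE 0.23, adjusted p = 1.00e-04) and INSIG1 (1.85, SE 0.19), and the widest downward that of SREBF1 (-0.96, SE 0.11, adjusted p = 6.87e-05). All 3 transport genes differed, NPC1 by 1.28 (SE 0.11), STARD4 by 1.14 (SE 0.19) and NPC2 by 0.68 (SE 0.11). Cell line, construct and direction of the CYP1B1 change vary together in this difference and cannot be told apart. A gene that followed CYP1B1 in both lines would also differ, and CYP1B1 itself gave -11.9.

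**Figure D4:**
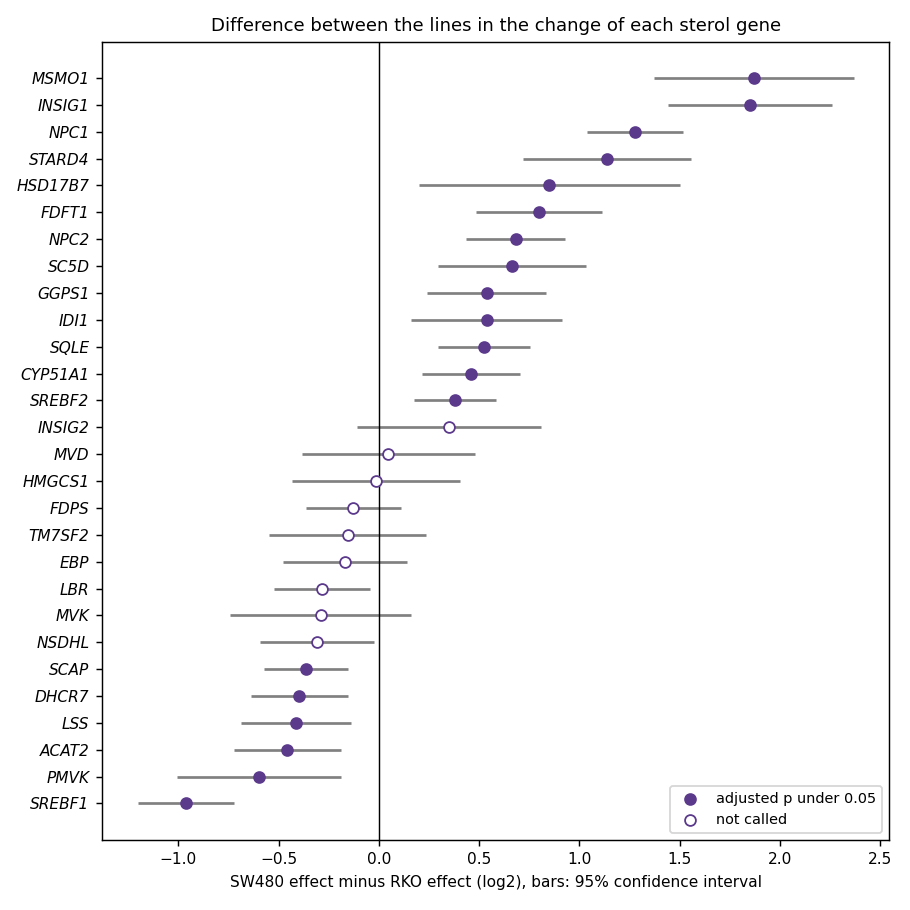
Difference between the lines (x axis, shCYP1B1 effect in SW480 minus overexpression effect in RKO, log2) for each of the 28 genes (y axis), with 95% confidence intervals; filled points have an adjusted p under 0.05. MSMO1 and INSIG1 lie furthest right, SREBF1 furthest left at -0.96, and HMGCS1 and MVD lie at -0.01 and 0.05. Cell line and direction of the CYP1B1 change vary together.

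For 9 of the 28 genes the difference did not pass, which does not show that they changed alike. HMGCS1 differed by -0.01 (interval -0.43 to 0.41) and MVD by 0.05 (interval -0.38 to 0.48). EBP gave -0.17 (interval -0.48 to 0.14) and FDPS -0.13 (interval -0.37 to 0.11). SQLE and IDI1 rose in both lines and rose more in SW480, by 0.53 (SE 0.10, adjusted p = 0.00227) and 0.54 (SE 0.17, adjusted p = 0.0288). DHCR7 also rose in both and rose less in SW480 (-0.40, SE 0.11, adjusted p = 0.0148). The IDI1 call was lost without any 1 of both RKO control libraries, both shNT libraries and shCYP1B1 replicate 1 (0.48 to 0.58, adjusted p from 0.0564 to 0.0941), and the DHCR7 call without RKO control replicate 2 or any 1 of the SW480 libraries (-0.44 to -0.36, adjusted p from 0.0502 to 0.0883).

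Ordered by their level in the control groups, NPC2 came first in both lines, at 86.2 ± 5.22 FPKM in RKO control and 96.2 ± 0.577 in shNT (SD, n = 2), and FDPS came next, at 65.4 ± 1.38 and 69.6 ± 1.27. FDFT1 followed in RKO (58.6 ± 3.19), with replicates that overlapped those of EBP behind it (53.2 ± 6.94), and stood far lower in SW480 (17.2 ± 0.0422). In shNT the FDPS and EBP replicates overlapped in the same way. The lowest genes were STARD4 in RKO (4.49 ± 0.00713) and IDI1 in SW480 (2.47 ± 0.0920). The lengths implied by their FPKM were 10109 and 5976 bp, longer than their 5684 and 4345 annotated exon bases in GENCODE. By counts IDI1 was not the lowest in shNT, at 529 and 497 against 208 and 235 for HSD17B7. Of the 27 pairs of neighbours in the order, 11 overlapped in RKO control, 20 with overexpression, 9 in shNT and 11 with shCYP1B1.

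Genes around the pathway were followed through lists of neighbouring functions. Of 16 genes of sterol export, esterification and movement, 8 rose and 3 fell in SW480 (median 0.24), beside 25.3% of all genes that rose and 25.3% that fell. ABCG1, a sterol exporter, stood at 0.709 and 0.562 FPKM in shNT and at 4.22 and 4.24 with shCYP1B1 (2.78, SE 0.16, adjusted p = 3.52e-07). GRAMD1A, which carries cholesterol from the plasma membrane to the endoplasmic reticulum, rose by 1.01 (SE 0.08), OSBP, an oxysterol-binding protein, by 0.39 (SE 0.07), and GRAMD1B, a paralogue of GRAMD1A, fell by 2.40 (SE 0.36) from 0.217 and 0.415 FPKM. ABCA1, another exporter, and MYLIP, a ubiquitin ligase that acts on lipoprotein receptors, were chosen for mention after their values were seen and rose by 1.71 (SE 0.35, adjusted p = 0.00184), at 0.112 and 0.106 and then 0.301 and 0.389 FPKM, and by 0.54 (SE 0.15, adjusted p = 0.00926). MYLIP did not pass without shNT replicate 2 or shCYP1B1 replicate 1 (0.48 and 0.47, adjusted p = 0.0744 and 0.0756). In RKO 2 of the 16 rose and 2 fell (12.5% each, median 0.12), a share close to the 13.8% of all genes in each direction: TMEM97, a sterol-binding membrane protein, rose by 0.84 (SE 0.11) and SCARB1, the HDL receptor, by 0.29 (SE 0.08), while NCEH1, a cholesterol ester hydrolase, fell by 0.79 (SE 0.10) and OSBP by 0.26 (SE 0.07). Without RKO control replicate 2, SCARB1 gave 0.22 (adjusted p = 0.213) and OSBP -0.22 (adjusted p = 0.130), and SCARB1 also missed the threshold without any 1 of the SW480 libraries (adjusted p from 0.0539 to 0.0562, at 0.30).

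Of 11 genes for the SREBP proteases and sterol-regulated degradation, 2 rose and 3 fell in SW480 (18.2% and 27.3%, median -0.05), beside 25.3% of all genes in each direction. MBTPS1, the site-1 protease that makes the first cut in SREBPs, fell from 28.3 and 28.1 to 18.4 and 18.9 FPKM (-0.55, SE 0.07, adjusted p = 5.36e-05). ERLIN2, of the endoplasmic reticulum complex that degrades sterol-regulated proteins, fell by 0.97 (SE 0.14) and MBTPS2, the site-2 protease, by 0.54 (SE 0.14). MBTPS2 did not pass without shNT replicate 2 (-0.47, adjusted p = 0.0694) or without shCYP1B1 replicate 1 (-0.52, adjusted p = 0.0526). In RKO 2 rose and 2 fell (18.2% each, median -0.11, beside 13.8% of all genes): ERLIN1 fell by 0.95 (SE 0.10) and MBTPS2 by 0.56 (SE 0.14), while PGRMC1 rose by 0.40 (SE 0.07) and UBE2G2, a ubiquitin-conjugating enzyme, by 0.33 (SE 0.08). MBTPS2 did not pass without RKO control replicate 2 (-0.41, adjusted p = 0.147), nor UBE2G2 without control replicate 1 or 2 (0.31 and 0.36, adjusted p = 0.0794 and 0.0618).

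Of 13 lipogenic targets of SREBP1, 5 rose and 4 fell in SW480 (38.5% and 30.8%, median 0.18), beside 25.3% of all genes in each direction. The fatty acid desaturases FADS1 and FADS2 fell from 34.4 and 34.7 to 18.8 and 18.2 FPKM (-0.86, SE 0.08) and from 17.4 and 17.3 to 9.59 and 9.65 (-0.81, SE 0.09), while MID1IP1, an activator of acetyl-CoA carboxylase, rose by 0.61 (SE 0.07) and the elongase ELOVL6 by 0.54 (SE 0.10). In RKO 3 rose and none fell (median -0.02), beside 13.8% of all genes each way, namely FASN, fatty acid synthase, by 0.44 (SE 0.08), SCD, stearoyl-CoA desaturase, by 0.38 (SE 0.07) and ELOVL6 by 0.33 (SE 0.10). ELOVL6 in RKO did not pass without control replicate 1 (0.33, adjusted p = 0.122), control replicate 2 (0.33, adjusted p = 0.129) or overexpression replicate 2 (0.21, adjusted p = 0.0597).

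The isoprenoid branches, which draw on the same intermediates for protein prenylation, dolichol and ubiquinone, were followed through 12 genes, of which 2 rose, 6 fell and 4 did not pass in SW480 (median -0.19), beside 25.3% of all genes in each direction. PDSS1, which builds the ubiquinone side chain, fell by 1.11 (SE 0.14), RABGGTA, a subunit of the Rab prenyltransferase, by 0.74 (SE 0.16) and ICMT, which methylates prenylated proteins, by 0.71 (SE 0.09). RABGGTB, the partner subunit of RABGGTA, rose by 0.70 (SE 0.10), from 27.6 and 27.1 to 44.2 and 42.1 FPKM. In RKO 1 rose and 2 fell (median -0.07), beside 13.8% of all genes each way: ICMT rose by 0.31 (SE 0.09), and RABGGTB and PGGT1B, a subunit of another prenyl transferase, fell by 0.38 (SE 0.09) and 0.54 (SE 0.15). All 3 missed the threshold without RKO control replicate 2 (0.25, adjusted p = 0.180; -0.32, adjusted p = 0.117; and -0.34, adjusted p = 0.245), and ICMT also without control replicate 1 (0.37, adjusted p = 0.0575) or either shNT library (0.32, adjusted p = 0.0521 and 0.0522).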

How the data were processed

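RNA-seq libraries of 8 samples, 2 in each of 4 groups taken from the sample titles, were analysed. The authors deposited raw read counts per gene and a matching FPKM table, in which each value equals the count over a gene length and over the library's total. Per the submitters' processing notes, reads were placed on GRCh38.p13. Per the labels' protocols, 1 µg of TRIzol-extracted RNA went into a stranded mRNA kit. Aligner, counter, annotation and strand setting: not given in the sources used here. Reads of overlapping genes therefore cannot be told apart.

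The members and the gene lists were chosen with earlier results of these data known. Genes with few counts were removed with filterByExpr by group (minimum count 10, minimum total 15), libraries were scaled by TMM, and edgeR 4.0.16 (R 4.3.3) fitted 1 quasi-likelihood model to the 8 libraries, a coefficient per group and 4 residual degrees of freedom. P-values were adjusted by Benjamini-Hochberg across the 14157 tested genes and called under 0.05. "Rose" and "fell" refer to that test. Each SE was derived from the log2 fold change and its F statistic. A permutation test of 1 gene with 2 libraries against 2 could not go below p = 0.333. Per-library log2 CPM used a prior count of 2. All 28 members were named, and of each other list up to 4 genes per line, those with the smallest p among the genes called in that line; marker genes were named after their values were seen. Some genes of these lists are counted but not reported here by name. Alternatives were other scalings and filters, DESeq2 1.42.0, limma 3.58.1 on log2(FPKM + 1) and log2(FPKM + 0.1), each line alone, a replicate block and each library left out. Exon overlaps came from GENCODE on GRCh38 and near-identical copies from blastn 2.17.0.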

Additional observations from a re-analysis of the deposited data

Results flagged for a closer look

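For 19 of the 28 genes the change with shCYP1B1 in SW480 differed from the change with overexpression in RKO by the test of the difference itself in edgeR (adjusted p under 0.05). It was higher in SW480 for MSMO1 (1.87), INSIG1 (1.85), NPC1 (1.28), STARD4 (1.14), HSD17B7 (0.85), FDFT1 (0.80), NPC2 (0.68), SC5D (0.67), GGPS1 (0.54), IDI1 (0.54), SQLE (0.53), CYP51A1 (0.46) and SREBF2 (0.38). It was lower in SW480 for SREBF1 (-0.96), PMVK (-0.60), ACAT2 (-0.46), LSS (-0.41), DHCR7 (-0.40) and SCAP (-0.36). The genes called higher made up 46.4% of the 28, beside 18.3% of all genes tested. Those called lower made up 21.4%, close to the 19.2% of all genes tested. Cell line, construct and direction of the CYP1B1 change cannot be told apart in these differences. Of these 19, 10 passed under all 17 alternatives run and 9 did not pass under at least 1: ACAT2, PMVK, IDI1, LSS, HSD17B7, SC5D, DHCR7, SREBF2 and SCAP. The difference in HSD17B7 passed with every library in place (adjusted p = 0.0412) and, of the 8 libraries left out in turn, only without overexpression replicate 1, where it was 1.22. Without overexpression replicate 2 it was 0.56 (adjusted p = 0.0595).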

How the results depend on the processing

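No called log2 fold change of the 28 genes reversed under any alternative run. Of 15 calls in RKO, 7 held under all 18 alternatives and 8 were lost under at least 1; in SW480, 15 of 22 held and 7 were lost. Over the libraries left out, the genes of the 28 that rose and fell numbered 7 to 17 and 1 to 3 in RKO and 15 to 19 and 2 to 4 in SW480, and the difference was higher for 10 to 14 and lower for 1 to 10. Over all genes, 891 to 2702 rose and 893 to 2927 fell in RKO, 2538 to 4378 and 2531 to 4379 in SW480, and 1912 to 3503 and 2016 to 3431 differed upward and downward. With each line fitted alone, 1133 genes rose and 1161 fell in RKO. The median of the 28 genes in RKO ranged from 0.15 to 0.35 and in SW480 from 0.50 to 0.53 over the libraries left out. In SW480 it was 0.54 with RLE scaling and with DESeq2, 0.47 with library size only, and 0.43, 0.46 and 0.43 with limma on log2(FPKM + 1), log2(FPKM + 0.1) and log2(FPKM + 1) without a filter. The limma fits changed the unit, the scaling and the pseudocount together.

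The values that changed sign belonged to genes not called. In RKO these were TM7SF2 (-0.011, -0.012 and -0.011 in the 3 limma fits, in the order above) and, over the libraries left out, TM7SF2 (-0.20 to 0.21), GGPS1 (-0.021 to 0.074), MSMO1 (-0.060 to 0.54), HSD17B7 (-0.38 to 0.28), SC5D (-0.24 to 0.12) and INSIG2 (-0.45 to 0.017), the extremes falling without overexpression replicate 1 or 2 except for GGPS1, where they fell without control replicate 2 or 1. In SW480 LSS was -0.038 with library size only and -0.037, -0.039 and -0.037 in the limma fits, and -0.065 to 0.089 over the libraries left out. The difference in HMGCS1 was 0.014 with RLE scaling and 0.015 with DESeq2, and over the libraries left out it was -0.18 to 0.15 in HMGCS1, -0.11 to 0.19 in MVD and -0.35 to 0.062 in TM7SF2. The cause was not tested.

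Same-numbered replicates did not deviate together (correlation of their deviations from the group means over all genes -0.0053 in RKO and -0.0115 in SW480). The main fit therefore used no pairing, but this cannot show whether same-numbered samples were cultured or prepared together. With a replicate block, 13 of the 28 genes rose and 1 fell in RKO, 18 rose and 4 fell in SW480, and the difference was higher for 13 and lower for 6; FDPS in RKO was the call lost (0.23, adjusted p = 0.0580). Over all genes the block gave 1792 up and 1861 down in RKO, 3463 and 3428 in SW480, and 2496 and 2572 for the difference.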
